A study of Mus musculus with 11 samples.

Results

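The genes described here are 32 members of the p53 pathway: Trp53 itself, its inhibitors Mdm2 and Mdm4, 13 genes tied to cell-cycle arrest and stress, 12 tied to apoptosis and 4 tied to DNA repair. They were taken from a list of symbols matched to the Ensembl IDs of the count table, and all 32 were found among its 22369 genes. A mean of at least 1 CPM (counts scaled to a common library size) was reached by 31 of the 32, among 12479 genes tested in all. The exception was Fas, a death receptor, at 0 to 0.567 CPM.

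The libraries came from 11 clones of EBRTcH3, a mouse embryonic stem cell line that makes a tetracycline-controlled transactivator from its Rosa26 locus. Each clone carried several barcoded piggyBac reporters driven by the mouse Pgk promoter and integrated at random positions. It had been grown from 1 colony picked after sorting for high eGFP. All clones were grown in medium conditioned by BRL cells, with leukemia inhibitory factor, the MEK inhibitor PD0325901 and the GSK-3 inhibitor CHIR99021. There was 1 group, no untreated or unmodified comparison was analysed here, and each clone (numbered 16 to 26) had 1 library, so differences between clones and differences between libraries cannot be told apart.

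p53 is a transcription factor that is held low by Mdm2, a ubiquitin ligase, and by its relative Mdm4. Stress and DNA damage stabilise the protein, which then raises transcription of genes that arrest the cell cycle, repair DNA or kill the cell. Mdm2 is itself a p53 target, which closes a negative feedback loop. Mouse embryonic stem cells are known for abundant p53 and for a fast cell cycle with a weak G1 checkpoint.

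Library totals ran from 10846005 counts in clone 16 to 16868500 in clone 23, so 3 counts corresponded to 0.173 to 0.284 CPM. The tested members had between 26 and 8019 counts in a library. All 10 stem cell markers examined were tested, and their summed level was 7531 to 9500 CPM. Of 10 fibroblast and 10 liver cell markers, 4 of each passed the filter, with summed levels of 11.1 to 28.4 and 13.4 to 32.4 CPM. Alb and Serpina1a, which define liver cells, had no count in any clone. Clones 20 and 23 were the most alike of all pairs (SD of the log2 difference over genes 0.176, against 0.277 for the next pair), but their counts still differed by more than sampling noise (mean chi-square per gene 5.77).

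Several members carry, close to their start, the 10-base half-site that makes up p53 binding sites in pairs. The promoters or sites of 6 members are printed here because these genes span the behaviours described later. Cdkn1a, Ccng1 and Mdm2 are classical targets of the arrest and feedback arms, Bax is an effector of apoptosis, and Ckap2 and Gtse1 encode microtubule-associated proteins of dividing cells. The sequences are from RefSeq, build GRCm38.p6, 5′ to 3′ in the direction of transcription, and cover the 250 bases before the start. For Gtse1 only 25 bases around the start are printed, which hold the first of its 3 overlapping elements. Capitals mark the 10-base consensus of the p53 half-site, here called the motif. It is its own reverse complement and so was read on both strands. Capitals also mark pairs of such motifs with at most 2 mismatches and a spacer of 0 to 13 bases, here called p53 elements. Ccng1 and Mdm2 have 1 motif each and no element in the printed bases. A motif inside an element was counted under both.
Cdkn1a (chr17:29090729-29090978, plus strand): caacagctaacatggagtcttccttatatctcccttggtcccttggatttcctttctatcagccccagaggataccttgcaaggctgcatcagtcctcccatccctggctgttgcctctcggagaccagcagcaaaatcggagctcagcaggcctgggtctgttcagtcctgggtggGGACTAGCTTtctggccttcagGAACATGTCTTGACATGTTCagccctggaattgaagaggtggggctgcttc
Ccng1 (chr11:40755287-40755536, minus strand): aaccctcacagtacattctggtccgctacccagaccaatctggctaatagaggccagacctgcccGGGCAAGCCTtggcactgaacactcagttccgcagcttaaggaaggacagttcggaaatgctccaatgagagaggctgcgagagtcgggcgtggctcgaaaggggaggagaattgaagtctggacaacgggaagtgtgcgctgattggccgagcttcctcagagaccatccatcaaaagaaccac
Mdm2 (chr10:117710759-117711008, minus strand): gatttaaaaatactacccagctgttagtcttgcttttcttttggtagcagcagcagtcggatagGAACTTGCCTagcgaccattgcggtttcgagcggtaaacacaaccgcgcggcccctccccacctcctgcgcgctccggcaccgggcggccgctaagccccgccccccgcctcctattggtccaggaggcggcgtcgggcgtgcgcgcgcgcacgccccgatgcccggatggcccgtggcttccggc
Ckap2 (chr8:22185820-22186069, minus strand): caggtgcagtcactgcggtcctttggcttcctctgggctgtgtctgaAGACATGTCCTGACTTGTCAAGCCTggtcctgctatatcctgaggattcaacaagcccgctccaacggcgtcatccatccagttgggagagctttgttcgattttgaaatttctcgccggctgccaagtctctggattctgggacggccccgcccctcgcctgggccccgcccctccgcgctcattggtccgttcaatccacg
Bax (chr7:45466899-45467148, minus strand): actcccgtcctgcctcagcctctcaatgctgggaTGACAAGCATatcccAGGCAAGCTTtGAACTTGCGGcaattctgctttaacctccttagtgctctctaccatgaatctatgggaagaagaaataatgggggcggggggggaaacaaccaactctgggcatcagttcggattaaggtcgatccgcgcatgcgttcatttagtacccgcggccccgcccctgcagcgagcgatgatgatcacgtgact
Gtse1 (chr15:85859940-85859964, plus strand): accggGAGCAAGTTGGGGCTTGCCT

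A promoter of 300 bases, with 50 bases after the start included, was matched for 24 of the 32 members and not for Trp53inp1, Zmat3, Pmaip1, Perp, Tnfrsf10b, Rrm2b, Xpc and Ddb2. The half-site motif occurred in 12 of the 24 (50%), against 9.55% of the promoters of 27025 genes. An element occurred in 5 of the 24 (20.8%), namely Cdkn1a, Gtse1, Ckap2, Sesn1 and Bax, against 2.47% of all genes. Cdkn1a had 2 elements, before the upstream one of its annotated starts. The one with 0 mismatches joins the separate upstream motif to the next motif across a spacer. The unspaced pair is the other element and is not free of mismatches. Plk2, Eda2r, Phlda3 and Bbc3 had no motif in this window. These matches describe letters and not binding.

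The p53 transcript was abundant in all clones, and its feedback inhibitor Mdm2 was highest in clones 24 and 26, although neither gene was called variable by the test described later (adjusted p = 1 and 0.414, edgeR goodness-of-fit). Trp53 had 317 CPM in its lowest clone (21), 400.2 in the median clone and 463 in its highest (19), with a mean of 397 ± 42.4 CPM (SD, n = 11). Mdm2 reached 210 CPM (clone 24) and 206 CPM (clone 26), while the remaining 9 clones spanned 103 to 149 CPM, with no overlap. Mdm4, a non-degrading inhibitor of p53, was lowest in clone 18 (119 CPM) and highest in clone 23 (248 CPM), with a median of 164 CPM. The clones highest for Mdm4 were 23 and 20, which were not the highest for Mdm2. In bulk RNA, fewer cells expressing a gene and less RNA per cell cannot be told apart.

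Per length of transcript, the executioner Bax and Trp53 itself were the most abundant of the list. Bax averaged 102 ± 12.8 RPKM (CPM per kilobase of exons, SD, n = 11) and Trp53 98.2 ± 10.5 RPKM, levels that differ by less than their spread. They were followed by Gtse1 at 79.4 ± 19.4 RPKM and Ccng1, which encodes cyclin G1, at 70.6 ± 25.9 RPKM. The cyclin-dependent kinase inhibitor Cdkn1a (p21) reached 20.4 ± 7.65 RPKM and the BH3-only killer protein genes Bbc3 (Puma) and Pmaip1 (Noxa) 6.83 ± 2.93 and 5.55 ± 2.34 RPKM. At the low end were the ribonucleotide reductase subunit gene Rrm2b at 2.07 ± 0.41 RPKM and Perp, a membrane protein gene of the apoptosis group, at 1.93 ± 0.838 RPKM.

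**Figure D1:**
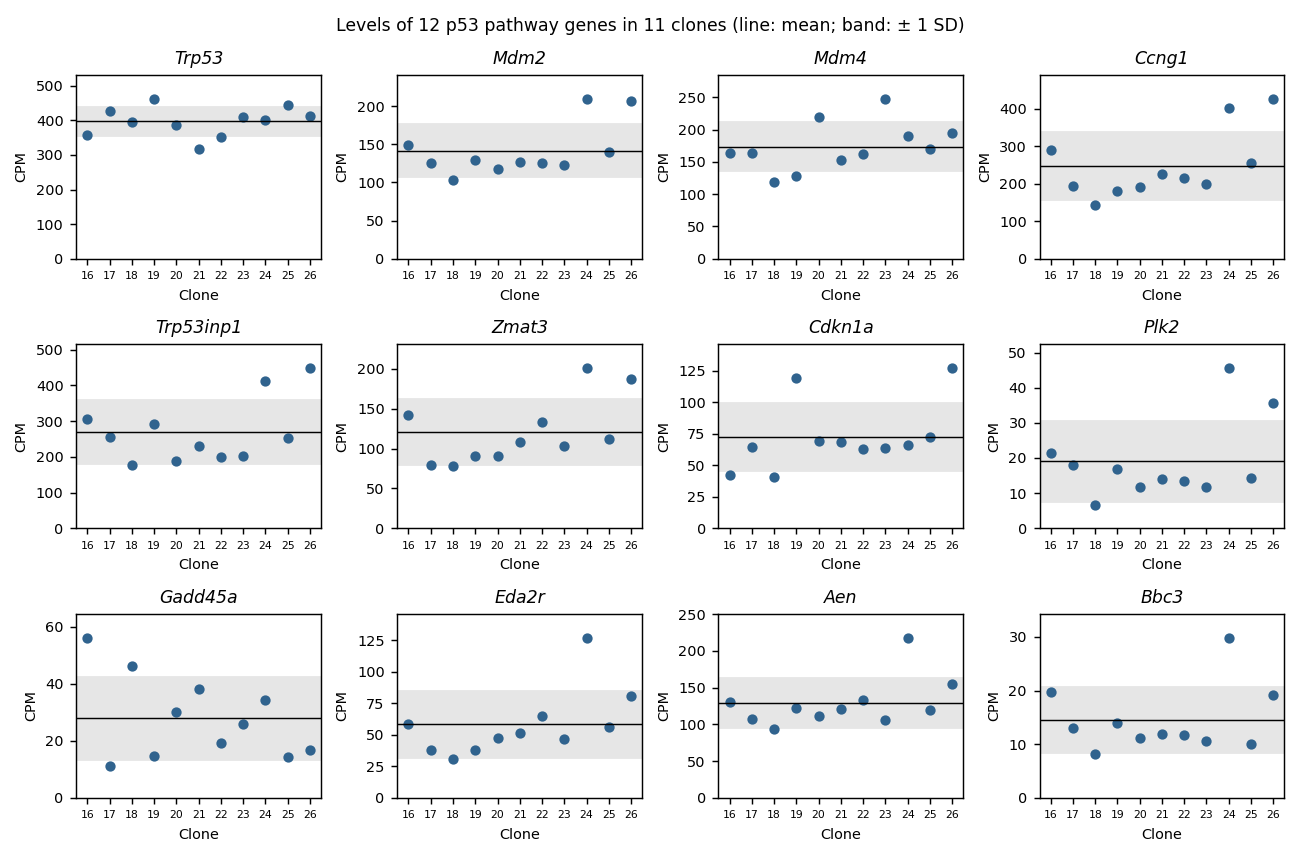
CPM of 12 p53 pathway genes (vertical axis, linear, from 0) in each of the 11 clones (horizontal axis); each point is 1 library, the line is the mean and the band is 1 SD. Trp53 stays between 317 and 463 CPM, while Mdm2 and Ccng1 stand apart in clones 24 and 26.

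Of the members called variable between clones, 6 were arrest and stress genes and 1 an apoptosis gene, and the roles were not tested against each other. A goodness-of-fit test of each gene's counts in edgeR, against the spread typical of genes at its level and with Benjamini-Hochberg adjustment over all genes, called 7 of the 31 tested members variable (22.6%), against 7.68% of all tested genes. These were 6 of the 13 arrest and stress genes (Gadd45a, Plk2, Ccng1, Cdkn1a, Trp53inp1 and Zmat3) and 1 of the 11 tested apoptosis genes, Eda2r. None of Trp53, Mdm2 and Mdm4 and none of the 4 repair genes passed. At an unadjusted p under 0.05 the count was 13 of 31, against 13.1% of all genes, made up of 7 of 13 arrest and stress genes and 6 of 11 apoptosis genes. With the dispersion trend of DESeq2 in the same test, the apoptosis genes Phlda3 and Pmaip1 joined the calls, for 9 of 31, against 8.26% of all genes. The median coefficient of variation was 26.2% over the members and 17.9% over all tested genes. With 1 library per clone the test measures spread between libraries and has no replicate of any clone behind it.

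Plk2, a polo-like kinase, had the largest coefficient of variation of the tested members, 60.5%. Its levels were 45.6 and 35.6 CPM in clones 24 and 26, against 6.65 to 21.4 CPM elsewhere (adjusted p = 3.6e-05, edgeR goodness-of-fit). Ccng1 had 403 and 427 CPM in clones 24 and 26, against 144 to 290 CPM elsewhere (adjusted p = 0.000187). Trp53inp1, a p53-induced nuclear protein linked to autophagy and cell death, had 412 and 448 CPM in the same clones, against 177 to 306 CPM elsewhere (adjusted p = 0.00178). For all 3 genes the lowest value was in clone 18 and the clones 24 and 26 lay above every other clone.

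Zmat3, which encodes an RNA-binding zinc finger protein, had 201 and 187 CPM in clones 24 and 26, against 78.5 to 142 CPM elsewhere (adjusted p = 0.00227, edgeR goodness-of-fit). Its next highest clone was 16, where the 24 nearest tested genes on its chromosome were also high (median log2 difference 0.53). Eda2r, the ectodysplasin A2 receptor of the death-receptor family, had 127 and 80.9 CPM in clones 24 and 26, against 30.6 to 65.3 CPM elsewhere (adjusted p = 4.4e-05). Zmat3 and Eda2r lost the call without clone 24, with adjusted p-values of 0.0639 and 0.188, and Trp53inp1 lost it without clone 26 (0.0689).

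Cdkn1a was also high in clone 26 but not in clone 24, and Gadd45a was highest in other clones. Cdkn1a had 127 CPM in clone 26 and 119 CPM in clone 19, then 72.4 CPM in clone 25, with a median of 66.2 CPM and a lowest value of 40.4 CPM in clone 18 (adjusted p = 0.00145, edgeR goodness-of-fit, and 0.0646 without clone 26). Clone 24, high for so many other members, was at 66.2 CPM for Cdkn1a, the median clone. Gadd45a, a growth arrest and damage response gene, ran from 11.3 CPM in clone 17 through a median of 25.9 CPM to 56.2 CPM in clone 16 (adjusted p = 1.3e-06). Its next highest clones were 18 at 46.2 CPM and 21 at 38.3 CPM, and clones 24 and 26 held 34.2 and 16.7 CPM. Clone 18 was thus among the highest for Gadd45a and the lowest for Cdkn1a.

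Clone 18 and clone 16 were also the clones in which genes of the integrated stress response stood highest. Of 12 such genes on a separate list, which includes the transcription factor gene Atf4 and the asparagine synthetase gene Asns, 12 lay above their median clone in clone 16 and 12 in clone 18, with median log2 differences of 0.56 and 0.43. All 12 lay below it in clones 22 and 25, where Gadd45a had 19.2 and 14.4 CPM. Of all 12479 tested genes, 5863 and 5439 lay above their median clone in clones 16 and 18. In clones 22 and 25, 5998 and 5463 lay below it. Over the 11 clones, log2 levels of Gadd45a followed the mean of the list with r = 0.89, ranking 23 among the tested genes. For Cdkn1a the same r was -0.53. These coefficients are descriptions, the list was chosen with results known, and its part in the level of Gadd45a was not tested.

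Outside the 7 called genes, Phlda3, an inhibitor of Akt signalling in the apoptosis group, lay just past the threshold (adjusted p = 0.0508, edgeR goodness-of-fit). It had 53.9 CPM in clone 24, against 17.03 CPM in clone 18. Bbc3 had 29.9 and 19.1 CPM in clones 24 and 26, against 8.24 to 19.8 CPM elsewhere, with clone 16 just above clone 26. Pmaip1 had its highest values, 27.2 and 24.8 CPM, in clones 20 and 22, and its lowest, 7.19 CPM, in clone 16. The evenest member was Xpc, which recognises DNA damage for excision repair, at 36.2 to 43.5 CPM (coefficient of variation 4.68%).

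Several other members had their extremes in varied clones. Btg2 was at 45.2 CPM in clone 24, against 18.3 to 33.2 CPM in the 9 clones other than 24 and 26, and Ccng2, an unconventional cyclin gene, was highest in clone 24 (27.5 CPM) and lowest in clone 19 (11.2 CPM). Sesn1, a sestrin gene of the stress response, was instead lowest in clone 24 (17.9 CPM) and highest in clone 26 (33.6 CPM). Plk3, another polo-like kinase gene, was highest in clone 19 (44.5 CPM) and lowest in clone 22 (17.4 CPM). None of these 4 genes was called variable. Among the repair genes, Ddb2, which recognises ultraviolet damage together with partner proteins, had 22.6 CPM in clone 16, against 15.5 ± 1.09 CPM in the other 10 clones (SD). Rrm2b spanned 13.2 to 23.3 CPM, with clone 24 near the bottom (13.4 CPM) and clone 26 near the top (23.2 CPM), so the highest clones for Mdm2 parted for this gene. Ei24, an endoplasmic reticulum protein gene, spanned 109 to 157 CPM, and Perp, the scarcest tested member, 2.07 to 6.64 CPM.

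Across the list, clones 24 and 26 stood at the top and clone 18 at the bottom. Clones 24 and 26 held the highest pair of values for 11 of the 31 tested members (35.5%), against 2.92% of all tested genes. These 11 were Mdm2, the arrest and stress genes Ccng1, Plk2, Zmat3 and Trp53inp1, the apoptosis genes Bax, Apaf1, Tnfrsf10b, Aen and Eda2r, and the translesion polymerase gene Polk. Clone 18 was the lowest clone for 16 members (51.6%), against 4.42% of all tested genes, and for 8 of the 11 tested apoptosis genes. Relative to each gene's median clone, the members' median was 0.42 in clone 24, 0.33 in clone 26 and -0.33 in clone 18 on the log2 scale, while that of all tested genes was 0.00 in each of the 3. Clones 24 and 26 were known to stand high for p53 targets when these counts were made, so the counts describe the clones and carry no test. The summed fibroblast and liver markers were low in these clones (11.1 and 12.2 CPM, and 13.4 and 18.05 CPM, in clones 24 and 26). Clone 22 had a similar fibroblast sum (11.7 CPM) and clone 19 a similar liver sum (18.2 CPM). Any part of these levels in the result was not tested.

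**Figure D2:**
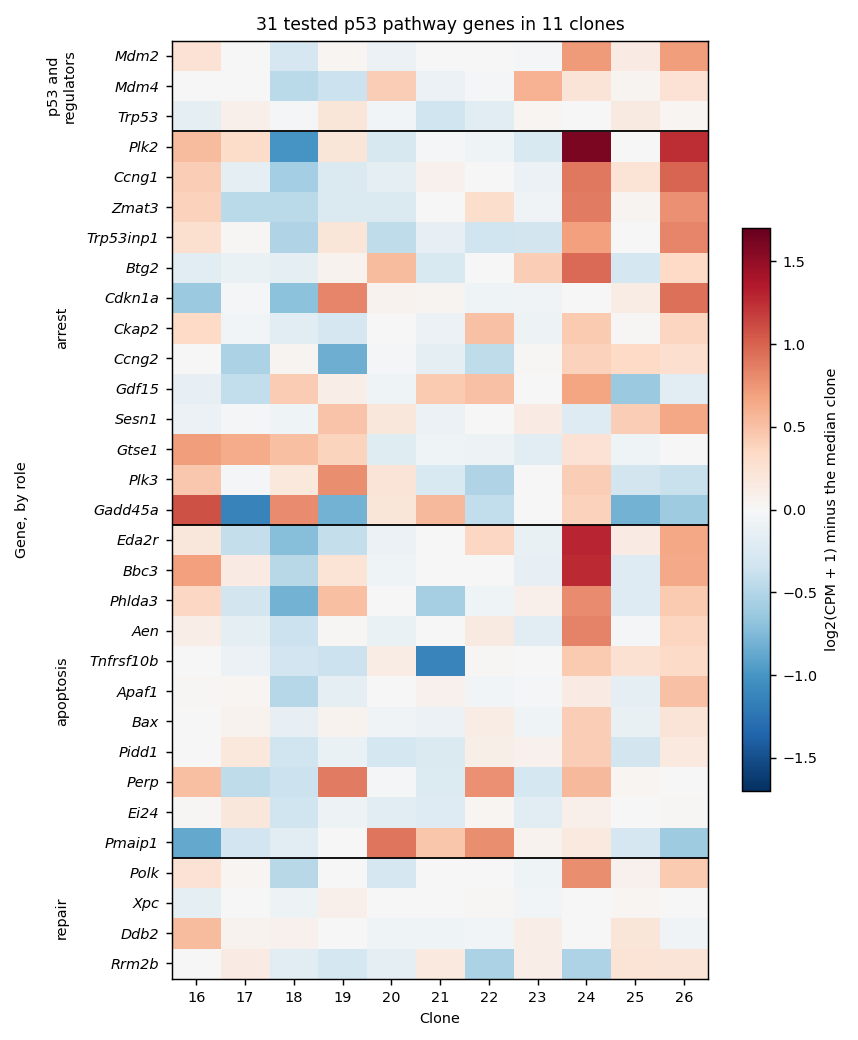
Colour gives log2(CPM + 1) of each of 31 tested genes (rows, grouped by role) minus its median clone, for 11 clones (columns). Clones 24 and 26 are mostly red (26 and 23 of 31 genes above the median clone) and clone 18 mostly blue (25 of 31 below). Of all 12479 tested genes, 5855 and 5528 lay above it in clones 24 and 26, and 5664 below it in clone 18.

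Most apoptosis genes lay on one side of their median in these 3 clones. All 11 tested apoptosis genes lay above their median clone in clone 24, 9 of 11 did in clone 26, and none did in clone 18. Of all 12479 tested genes, 5855, 5528 and 5439 lay above their median clone in clones 24, 26 and 18. Aen, an apoptosis-enhancing nuclease, had 218 and 155 CPM in clones 24 and 26, against 93.5 to 134 CPM elsewhere. Bax had its highest value, 208 CPM, in clone 24 and its lowest, 141 CPM, in clone 18. Apaf1, the scaffold of the apoptosome, had 87.9 CPM in clone 26 and 43.9 CPM in clone 18. Of the 13 arrest and stress genes, 11 lay above their median clone in clone 24 and 8 lay below it in clone 18. Of all 12479 tested genes, 5664 lay below it in clone 18. Clones 24 and 26 were known beforehand to stand high for p53 targets, so these counts carry no test.

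Tests of 1 clone against the others called no member with edgeR and 2 with DESeq2. Of 341 combinations of tested member and clone, edgeR's quasi-likelihood test of the clone against the other 10 called 0 (lowest adjusted p = 0.12, Benjamini-Hochberg), against 0.213% of all combinations. At an unadjusted p under 0.05 there were 26 (7.62%), against 5.92% of all combinations. Most of these 26 lay in clones 24 and 26, all higher there than in the other clones. The share of all combinations is pooled over the 11 clones. Clones 24 and 26 were known beforehand to stand high for p53 targets, so this split carries no test. The Wald test of DESeq2 called 2, against 1.05% of all combinations. They were Aen in clone 24, with 218 CPM against 120 ± 17.2 CPM in the other 10 clones (SD), and Tnfrsf10b in clone 21, with 15.0 CPM against 35.4 ± 6.59 CPM. The edgeR log2 differences were 0.86 ± 0.19 and -1.23 ± 0.30 (SE). The unadjusted share of members lay close to that of all combinations, and the share called by DESeq2 lay below it. Neither total sets the members apart from the rest.

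Genes near several members on the chromosome had shifted levels in some clones, and the part of this in the members' values was not tested. The 24 tested genes nearest to Tnfrsf10b, a death receptor gene, shifted by a median log2 difference of -0.84 in clone 21. Around Gtse1, which restrains p53 in the G2 phase, the neighbours' median log2 difference was 0.59 in clone 17, and Gtse1 itself was highest in clones 16 to 19. Neighbours of Ckap2 were higher by 0.45 and those of Gdf15, a secreted stress cytokine, by 0.61 in clone 22. Phlda3, Mdm4 and Btg2 had neighbours raised in clones 20 and 23, by up to 0.54, 0.42 and 0.47. Around Ccng1 the neighbours' median was 0.04 in clone 24 and 0.00 in clone 26, and around Mdm2 0.10 and 0.00.

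Members that followed Mdm2 over the clones were examined next, since its transcription is a common readout of p53 activity and the co-variation was part of the question asked of this list. Clones 24 and 26 form a group of their own on the Mdm2 axis, so most coefficients are given also over the other 9 clones. Ccng1 followed Mdm2 with r = 0.97 over 11 clones (permutation p = 9.0e-05; rho = 0.83, permutation p = 0.00265; adjusted over all genes 0.113) and r = 0.92 over 9 clones (exact permutation p = 0.00163). Polk followed it with r = 0.95 over 11 clones (permutation p = 1e-05, the smallest that 100000 permutations can give, adjusted 0.0624; rho = 0.96, permutation p = 4.0e-05) and 0.95 over 9 (exact permutation p = 0.000163). For both genes the relation was also seen in the 9 clones alone.

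Plk2 had r = 0.96 and 0.88 over 11 and 9 clones (permutation p = 7.0e-05; rho = 0.94, permutation p = 0.00013) and Trp53inp1 0.94 and 0.84 (permutation p = 3.0e-05; rho = 0.94, permutation p = 9.0e-05), both with an adjusted p of 0.113. Zmat3 had 0.91 and 0.70, Aen 0.90 and 0.76, Bbc3 0.88 and 0.76, and Eda2r 0.88 and 0.67. These 8 genes were the ones with an exact permutation p under 0.05 for r over the 9 clones. By rank over the 9 clones, Ccng1 (rho = 0.70), Polk (0.93), Plk2 (0.88) and Trp53inp1 (0.90) also had an exact permutation p under 0.05. Zmat3 (rho = 0.67), Aen (0.63), Bbc3 (0.62) and Eda2r (0.45) did not. Outside these 8 genes, some relations rested on clones 24 and 26. For Bax, r with Mdm2 was 0.81 over 11 clones and 0.27 over 9. For Pidd1, a death-domain protein gene, it was 0.69 and 0.30. For Btg2, an antiproliferative gene, it was 0.53 over 11 clones and -0.30 over 9.

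No member passed the adjustment over all 12478 genes with 11 clones, where the smallest permutation p of a single gene would become 0.125 after Benjamini-Hochberg adjustment. At an unadjusted permutation p under 0.05, 13 of 30 members were positively correlated with Mdm2 (43.3%), against 3.37% of all genes, and 0 negatively, against 3.65%. Over the 9 clones without 24 and 26 the count was 8 of 30 (26.7%), against 1.56%. The median r was 0.54 over the members and -0.01 over all genes with 11 clones, and 0.30 and 0.00 with 9. By role, the 13 were 5 of 13 arrest and stress genes, 7 of 11 apoptosis genes and 1 of 4 repair genes, Polk. With rank correlation the counts were 9 of 30 over 11 clones, against 2.71% of all genes, and 4 of 30 over 9, against 1.98%.

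**Figure D3:**
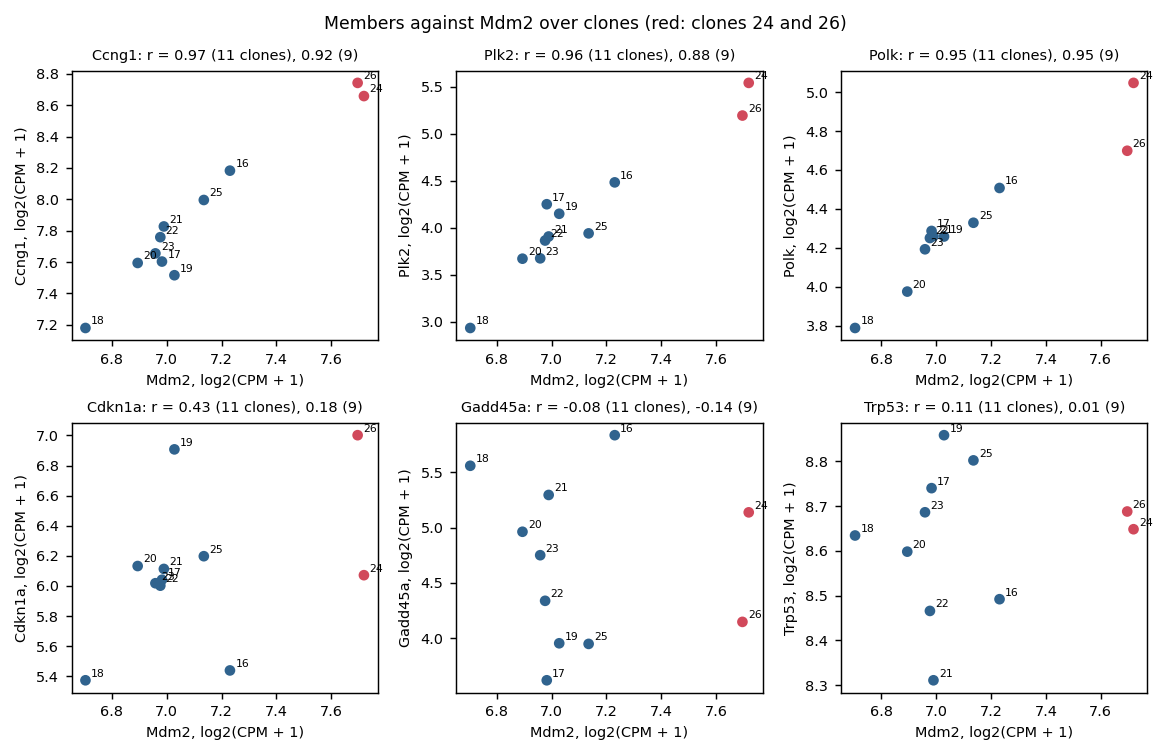
log2(CPM + 1) of several members (vertical axis) against that of Mdm2 (horizontal axis), 1 point per clone, with clones 24 and 26 in red. Ccng1 and Polk line up with Mdm2 also among the other 9 clones (r = 0.92 and 0.95).

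Coefficients near 0 with Mdm2 included that of Trp53 itself, with r = 0.11 over 11 clones and 0.01 over 9. Cdkn1a had r = 0.43 and 0.18, neither past the unadjusted threshold, Gadd45a -0.08 and -0.14, and Pmaip1 -0.35 and -0.43. The damage recognition gene Xpc had 0.09 and -0.08. When each gene's log2 level was taken relative to its 24 nearest tested neighbours, 18 of 30 members were positively correlated with Mdm2 at an unadjusted permutation p under 0.05 (60.0%), against 3.4% of all genes, with a median r of 0.68. The gain included Gtse1, whose r was 0.71 relative to neighbours and -0.01 as measured, Tnfrsf10b with 0.77 and 0.56, and Mdm4 with 0.61 and 0.33.

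**Figure D4:**
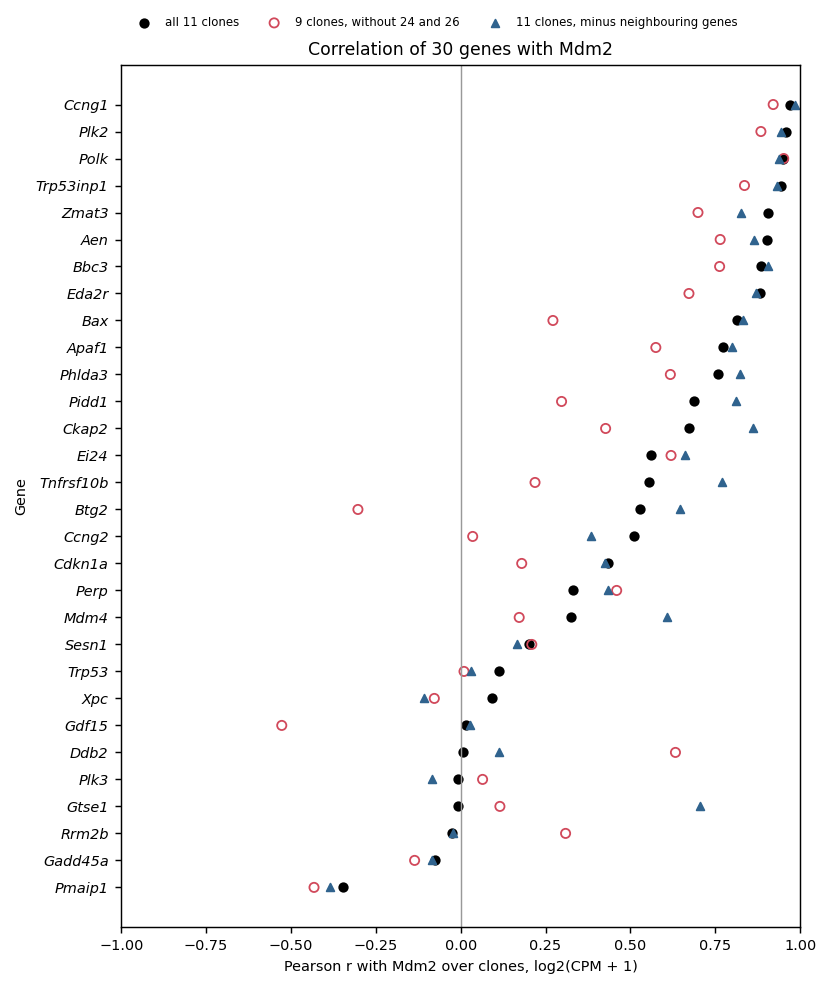
Pearson r with Mdm2 of log2(CPM + 1) (horizontal axis, -1 to 1) for 30 members (rows), over 11 clones, over the 9 clones without 24 and 26, and relative to neighbouring genes. Ccng1, Plk2, Polk and Trp53inp1 lie above 0.8 in all 3, and Pmaip1 lies below 0.

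No correlation of a member with the level of the Trp53 transcript passed the adjustment. Against Trp53, 0 of 30 members passed over all genes, none was positively correlated at an unadjusted permutation p under 0.05 (against 4.51% of all genes) and 1 was negatively correlated (against 3.16%), Gadd45a with r = -0.63 (permutation p = 0.0362; rho = -0.75, permutation p = 0.0114). The median r was 0.06. Leaving out clones 21 and 19, the farthest from the median Trp53 level, the members' r ran from -0.67 to 0.63, and Perp alone had an exact permutation p under 0.05, at 0.0496 with r = -0.67. For Gadd45a r was -0.57 over these 9 clones (exact permutation p = 0.11), so its relation to Trp53 no longer passed the unadjusted threshold.

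Among themselves, the members had a median pairwise r of 0.22 over 465 pairs of tested genes, against 0.00 over all pairs of tested genes. By role it was 0.55 for the apoptosis genes, 0.15 for the arrest and stress genes and -0.02 for the repair genes. Without clones 24 and 26 these medians were 0.15, 0.38, -0.02 and 0.11 for the list, the apoptosis, the arrest and stress and the repair genes. The closest pairs were Ccng1 with Mdm2 and Plk2 with Polk, both at 0.97, then Plk2 with Mdm2 at 0.96, Polk with Mdm2 at 0.95, and Zmat3 and Aen with Eda2r, both at 0.95. All these coefficients share the same 11 libraries and are descriptions.

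Further p53 targets outside the list were examined in the same way. Of 27 such genes, 24 were tested and 3 were called variable (12.5%, against 7.68% of all tested genes): Psrc1, Slc19a2 and Ak1. With a list of this size, 3 calls do not set the genes apart from the rest. Slc19a2, a thiamine transporter gene, had 124 and 93.4 CPM in clones 24 and 26, against 40.1 to 67.9 CPM elsewhere, and Ak1, which encodes adenylate kinase, had 82.6 and 118 CPM, against 44.2 to 80.1 CPM. Over 11 clones 9 of the 24 were positively correlated with Mdm2 at an unadjusted permutation p under 0.05 (against 3.37% of all genes). Over the 9 clones without 24 and 26 it was 1, Susd6 (against 1.56%). The median r of the 24 was 0.51 over 11 clones and 0.26 over 9. The most abundant of the 24, Sesn2, a stress-induced sestrin gene, averaged 350.2 ± 92.5 CPM (SD, n = 11).

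Genes that act on p53 or are related to it were examined as well. Of these 21 genes, which include kinases, ligases, cofactors and p53 family members, 1 was called variable (against 7.68% of all tested genes). This was Trp63, a p53 family member. It had 40.0 CPM in clone 19, against 0 to 0.544 CPM in the other 10 clones, and edgeR's quasi-likelihood test called this difference (adjusted p = 0.000114). Clone 19 also held the next highest level of Cdkn1a, and whether Trp63 has a part in it was not tested. The deubiquitinase gene Usp7, the most abundant of the 21, averaged 737 ± 88.8 CPM. Of 20 genes of G2 and mitosis, 0 were called variable by the edgeR goodness-of-fit test with Benjamini-Hochberg adjustment (against the same 7.68%) and 1 at an unadjusted p under 0.05 (against 13.1%). With lists of this size such counts do not set the genes apart from the rest. Their median r with Mdm2 was 0.12.

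Genes outside the list whose pattern was most like it were ranked by r over the 11 clones with the mean z-score of the tested members, among the 10324 genes that averaged 5 CPM or more. The first 9 were Med1, Arap2, Rev1, Pisd, Kifc5b, Rnf169, Myef2, Dcun1d3 and Ddias, with r of 0.89 to 0.95. In 8 of these 9, clones 24 and 26 were the highest, and in 8 clone 18 was the lowest, with Ddias the exception in both. Med1, a Mediator subunit, had 156 and 163 CPM in clones 24 and 26, against 117 to 138 CPM elsewhere. Rev1, a translesion synthesis protein like Polk, had 80.8 and 60.4 CPM in these clones, against 28.2 to 56.4 CPM elsewhere, and was the only one of the 9 called variable (adjusted p = 0.0460, edgeR goodness-of-fit). Ranking by likeness chose these genes, so neither their r nor their highest and lowest clones are a test.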

How the data were processed

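Total RNA of 11 clones was prepared with RNeasy and TruSeq kits, per the labels' protocols. The aligners were Bowtie 0.12.7 and TopHat 1.4.0, and the builds named, without a role, were mm9 and hg19, all per the submitters' processing notes. For the counting tool, its strand setting and multiply mapped reads the sources used here give nothing, so values of genes with near-identical copies or antisense partners are uncertain. The deposited values were read counts per gene, not normalized, for 22369 Ensembl IDs. Symbols were found for 20777 of them. The table held 0 lines that are not genes.

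Counts were scaled with TMM in edgeR 4.0.16 (R 4.3.3), with DESeq2 1.42.0 as an alternative, and genes under a mean of 1 CPM were left out. RPKM used exon lengths of GENCODE vM21, a later annotation than that of the counts. Variation between clones was tested by goodness of fit of an intercept-only negative binomial model with trended dispersion (common coefficient of variation 24.8%). Each clone was also tested against the other 10 by quasi-likelihood. Both used Benjamini-Hochberg adjustment over all tested genes, or over all genes and clones, at 0.05. Correlations used log2(CPM + 1) with 100000 two-sided permutations, or all orders of 9 clones. The tests were checked on simulated data. p-values measure only the spread between these libraries, since nothing says which part of it is technical.

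Alternatives were DESeq2 size factors, dispersion trend and Wald test, no filter or a mean of 5 CPM, Spearman's rho, a pseudocount of 0.1, levels relative to 24 neighbouring genes, and leaving out each clone or clones 24 and 26. All members, the 3 most abundant and up to 4 variable genes of each other list, and the 10 genes most like the members could be named. Of these 10, 1 is not reported here. Members and lists were chosen with earlier results of these data known.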

Additional observations from a re-analysis of the deposited data

How the results depend on the processing

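Each of the 4 counts was recomputed under the alternatives that apply to it: size factors, filters and left-out clones for all 4, the dispersion trend and the Wald test for the tests between clones, and rank correlation, pseudocount, neighbouring genes and clones 24 and 26 for the correlations. The number of members variable between clones was 7 and ran from 5 to 9 when each clone was left out in turn. The number of combinations of member and clone called was 0 with edgeR, 2 with the Wald test of DESeq2, and 0 to 1 when a clone was left out (Aen in clone 24 without clone 26, adjusted p = 0.0443, edgeR). The number of members correlated with Mdm2 after Benjamini-Hochberg adjustment of the permutation p was 0, and 0 to 3 when a clone was left out. It was 3 without clone 17 (Ccng1, Polk and Plk2, adjusted 0.0499) and 3 without clone 19 (Ccng1, Polk and Trp53inp1, adjusted 0.0416). Of all 12478 genes, 5 passed without clone 17 and 3 without clone 19. With the number of permutations used, a single gene could reach an adjusted p of 0.125 at best. A pass therefore needed several genes at or near the smallest permutation p together, and these counts depend on that limit. The number correlated with Trp53 was 0 under each alternative run for it. The median pairwise r of all members was 0.15 without clones 24 and 26, against 0.22, an alternative chosen after seeing the data, as was Spearman's rho without these clones.

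Phlda3 passed the threshold for variation under 6 alternatives and Pmaip1 under 2. No paired analysis was possible because there is 1 group with 1 library per clone. The causes of these changes were not tested, beyond the fewer clones that leaving one out gives. Depth limits Fas and Perp most: 30 of 31 tested members averaged at least 5 CPM, and Perp was the exception.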
